A study of Mus musculus with 2 samples.

Results

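The urokinase gene Plau, its receptor gene Plaur, the tissue plasminogen activator gene Plat and the serpin genes Serpine2 and Serpinf1 were followed through the cell classes of 2 mouse mammary tumour libraries. They were chosen by symbol and made up 5 of the 31054 gene rows that both libraries list, with no symbol repeated. Each library came from 1 tumour type: a tumour labelled as a Met-1 xenograft, and a tumour of the PyMT model. The series text names EO771 as the implanted line where the sample label gives Met-1, and the sample label is followed here. Both groups were C57BL/6 inAd-Chaser-mTmG mice, in which an adiponectin-driven, doxycycline-dependent Cre (Adiponectin-rtTA with TRE-Cre) switches the Rosa26 mT/mG reporter, expressed in every cell, from tdTomato to EGFP in adipocytes. Age and number of mice are not given in the sources used here. The sorted cells were labelled EGFP positive and tdTomato negative in both groups.

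Urokinase and tissue plasminogen activator are serine proteases that cut plasminogen into plasmin, the enzyme that dissolves fibrin and degrades matrix. Urokinase acts at the cell surface when bound to its receptor, which the membrane holds by a lipid anchor, while tissue plasminogen activator is best known for acting on fibrin. Serpine2 encodes protease nexin-1, an inhibitor of thrombin, urokinase and tissue plasminogen activator. Serpinf1 encodes pigment epithelium-derived factor (PEDF), a secreted protein with the serpin fold that inhibits no known protease and is known as an inhibitor of blood vessel growth. In tumours, fibroblasts, pericytes and myeloid cells are known sources of parts of this system.

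The Met-1 xenograft library kept 2119 of 2451 barcodes with a median of 7706 UMIs, and the PyMT tumor library kept 589 of 619 with a median of 3470. The libraries shared 0 barcodes. A cell entered a class when it had UMIs of at least 3 markers of that class and its share of detected markers led the next class by at least 25 percentage points. Under that rule 15.1% of kept Met-1 cells and 15.6% of kept PyMT cells stayed without a class, and 298 and 92 cells lay within 10 points of the limit. The Met-1 xenograft gave 230 fibroblasts, 99 pericytes, 35 neutrophils, 729 macrophages, 34 luminal cells, 252 B cells and 271 T cells. The PyMT tumor gave 11 fibroblasts, 0 pericytes, 165 neutrophils, 164 macrophages, 86 luminal cells, 26 B cells and 41 T cells. Among Met-1 fibroblasts 135 carried mainly myofibroblastic markers such as Cilp, Tnc and Lrrc15, and 81 mainly progenitor markers such as Pi16, Clec3b and Dpp4. In the PyMT tumor these numbers were 0 and 8. EGFP had UMIs in 96.3% of kept Met-1 cells and 80.3% of kept PyMT cells, leukocytes included. It was found in 98.2% of T cells and 94.0% of B cells in Met-1. In PyMT it was found in 48.8% of T cells and 15.4% of B cells, all without thinning. Summed adipocyte markers stood at or below 19.9 CPM in every class.

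Values are UMIs added up over all cells of one class and scaled to 1e+06 UMIs of that class (CPM), with exact Poisson 95% intervals. Each group was 1 library, so there is no test, and every interval covers counting error alone, which leaves out any spread from mouse to mouse. A difference is described as a ratio of CPM with its exact conditional binomial interval. Levels are compared between cells for 1 gene at a time, never between genes. RNA carried over from other cells was gauged in T cells.

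**Figure D1:**
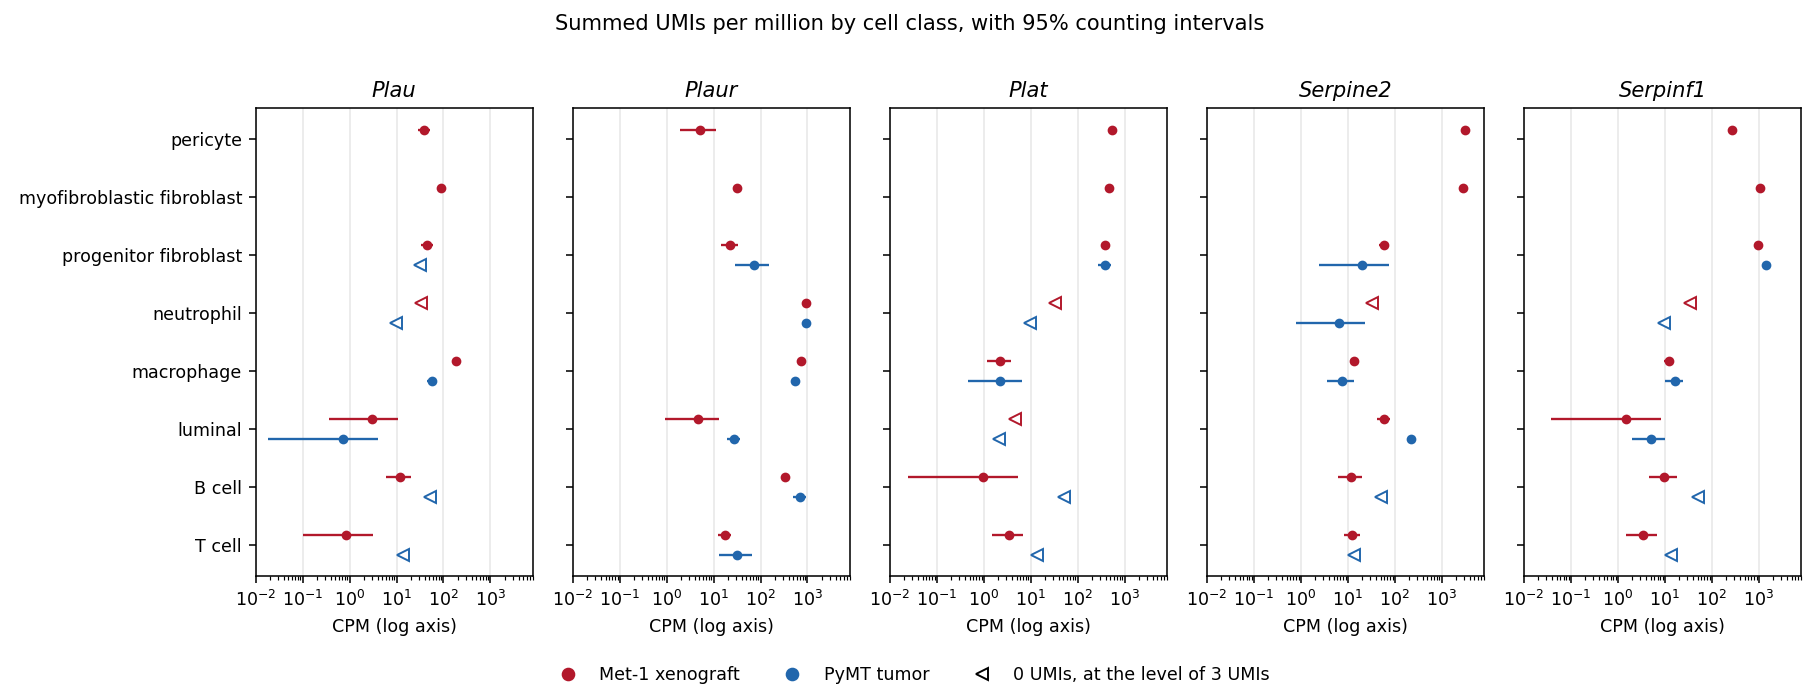
Summed UMIs scaled to 1e+06 (CPM, log axis) of each gene in 8 classes, Met-1 xenograft in red above PyMT tumor in blue; bars are 95% counting intervals and open triangles mark classes with 0 UMIs, drawn at the level that 3 UMIs would give. Serpine2 stood at 3146 CPM in pericytes, 2845 CPM in myofibroblastic cells and 58.9 CPM in progenitor cells, Plaur was high in neutrophils, macrophages and B cells of both libraries, and Plat and Serpinf1 were high in fibroblasts and pericytes. Classes with fewer than 8 cells in a library are not drawn.

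All 5 genes are protein coding, and 0 other annotated genes overlap any of them in GENCODE M21 (GRCm38, the build mm10). Plau lies on the plus strand at chr14:20836660-20843385, Plaur on the plus strand at chr7:24462484-24475968 and Plat on the plus strand at chr8:22757727-22782844. Serpine2 lies on the minus strand at chr1:79794197-79861180 and Serpinf1 on the minus strand at chr11:75409769-75422701. RefSeq promoter windows (GRCm38.p6, 250 bases before to 50 after the start site) were matched for 3 of the 5 genes. They are printed because Serpine2 differed most between fibroblast states, Serpinf1 hardly differed between them, and Plaur was high in myeloid cells. Capitals mark GGGCGG (GC box) in Serpine2, CCAAT in Serpinf1, and TGANTCA (AP-1 site) and GAGGAAG (PU.1 type site) in Plaur, each searched on both strands.
Serpine2, chr1:79858616-79858915, minus strand: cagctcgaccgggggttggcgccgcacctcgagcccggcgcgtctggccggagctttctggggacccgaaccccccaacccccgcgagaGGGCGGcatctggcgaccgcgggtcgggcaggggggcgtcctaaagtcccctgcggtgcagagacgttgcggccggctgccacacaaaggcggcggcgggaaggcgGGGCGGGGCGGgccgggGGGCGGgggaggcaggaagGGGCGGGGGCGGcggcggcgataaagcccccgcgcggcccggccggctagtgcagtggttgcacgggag
Serpinf1, chr11:75422574-75422873, minus strand: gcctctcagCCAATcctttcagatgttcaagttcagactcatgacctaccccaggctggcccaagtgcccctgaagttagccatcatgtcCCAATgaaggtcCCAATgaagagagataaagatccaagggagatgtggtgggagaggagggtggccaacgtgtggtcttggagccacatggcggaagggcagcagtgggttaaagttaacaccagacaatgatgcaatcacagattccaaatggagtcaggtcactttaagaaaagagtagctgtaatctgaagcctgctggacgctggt
Plaur, chr7:24462233-24462532, plus strand: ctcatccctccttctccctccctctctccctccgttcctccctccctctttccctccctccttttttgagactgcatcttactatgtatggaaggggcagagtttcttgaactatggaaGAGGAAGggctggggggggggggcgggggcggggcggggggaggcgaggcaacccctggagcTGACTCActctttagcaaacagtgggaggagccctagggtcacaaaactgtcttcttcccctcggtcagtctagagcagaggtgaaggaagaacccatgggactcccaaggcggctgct

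The Serpine2 window held 6 GC boxes and was 77.7% G or C, against a median of 52.7% over the 32851 windows of the table. A GC box is in 35.7% of those windows. The GENCODE span of Serpine2 begins further upstream than this RefSeq start. The Serpinf1 window held 0 GC boxes and 3 CCAAT motifs, which 37.4% of windows contain at least once, and was 50.7% G or C. The Plaur window held 1 AP-1 site, 69 bases before the start, and 1 PU.1 type site, 131 bases before it. These motifs are in 7.81% and 13.6% of windows, and the Plaur window also held 3 GC boxes that lie side by side, the last pair sharing a base. The 7 letters of TGANTCA were found in neither serpin window. A match describes the letters of the window and no binding was measured here.

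Plau, the protease of the urokinase pair, was highest in macrophages among the named cell classes of both libraries. It stood at 183 CPM (173 to 195) in Met-1 macrophages, with UMIs in 312 of 729 cells, and at 56.1 CPM (44.1 to 70.3) in PyMT macrophages, with UMIs in 41 of 164. The ratio of Met-1 over PyMT macrophages was 3.27 (2.59 to 4.19). After each cell was thinned to 1000 UMIs, Plau was seen in 12.5% of Met-1 macrophages (10.2 to 15.2) and 1.84% of PyMT macrophages (0.38 to 5.28). The median depth was 7328 UMIs in Met-1 macrophages and 7058 in PyMT macrophages. T cells, which gauge carried-over RNA, had 2 Plau UMIs in 271 Met-1 cells and 0 in 41 PyMT cells. Of the genes measured between macrophages of the libraries, that is with at least 50 summed UMIs in either, 6.2% were at least 2-fold higher in Met-1 cells and 1.24% at least 2-fold lower (491 and 98 genes, or 306 and 152 once ratios were centred on the median gene). Plau was the 1 of 4 measured genes of the group past 2-fold there, on ratios of CPM + 10. The macrophage markers summed to 18446 CPM in Met-1 macrophages and 20060 CPM in PyMT macrophages, and 8 immediate early genes such as Fos and Jun to 9981 and 6332 CPM. The part of cell handling or activation in the Plau difference was not tested.

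No Plau UMI was found in neutrophils of either library or in monocytes. Among 35 Met-1 neutrophils the 0 UMIs stand against 183 CPM in macrophages, at least 5.44-fold lower, with the floor at 3 counts over the class. Among 165 PyMT neutrophils the 0 UMIs stand against 56.1 CPM, at least 5.77-fold lower at that floor and 4.58-fold at the exact limit. The 20 Met-1 monocytes were at least 12.1-fold lower than the macrophages at that floor, and 9.83-fold at the exact limit. These monocytes had a Plaur level of 661 CPM (553 to 784), so the urokinase receptor was read where the protease was not. Neutrophils are shallow cells, with a median of 2698 UMIs in Met-1 and 1623 in PyMT, and their 0 counts limit the level to 33.7 and 9.72 CPM.

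Met-1 fibroblasts also held Plau, at 79.2 CPM (70.7 to 88.6), with UMIs in 130 of 230 cells. Myofibroblastic cells had 88.0 CPM (77.2 to 99.9) and progenitor cells 44.4 CPM (32.8 to 58.7), a ratio of 1.98 (1.45 to 2.76). The 14 fibroblasts in neither state had 207 CPM (133 to 308) from 24 UMIs, of which 12 lay in 1 cell. The 33 barcodes with both fibroblast and pericyte markers had 196 CPM (153 to 247). Both intervals overlap that of macrophages. Pericytes had 38.6 CPM (28.2 to 51.7), which overlaps the progenitor interval. Macrophage markers summed to 68.0 CPM in Met-1 fibroblasts, against 18446 CPM in macrophages. The 11 PyMT fibroblasts had 0 Plau UMIs, so the Met-1 fibroblast level was at least 3.25-fold higher at the floor and 2.63-fold at the exact limit. Within progenitor cells alone the bound was at least 1.43-fold at the floor and 1.12-fold at the exact limit, and does not reach 2-fold. It came from 44.4 CPM in 81 Met-1 cells and 0 UMIs in 8 PyMT cells. Leaving those small sets aside, in descending order within the Met-1 library Plau ran from macrophages through myofibroblastic cells to progenitor cells and pericytes, and of these neighbours only the last pair had overlapping intervals. The ratio of pericytes over all Met-1 fibroblasts was 0.488, and it was 1.04 (0.845 to 1.28) when classes were taken from clusters, so the place of pericytes turned with the class rule. B cells followed at 11.8 CPM, where 12 UMIs lay in 6 of 252 cells, and luminal cells at 3.04 CPM with 2 UMIs.

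Plaur, the receptor, was high in neutrophils, macrophages and B cells of both tumours. Neutrophils had 944 CPM (753 to 1169) in the Met-1 xenograft and 914 CPM (810 to 1027) in the PyMT tumor, a ratio of 1.03 (0.80 to 1.32). Macrophages had 714 CPM (692 to 735) in the Met-1 library and 553 CPM (514 to 595) in the PyMT library, a ratio of 1.29 (1.19 to 1.40). The largest macrophage cluster differed between libraries, cluster 7 with 350 of 729 cells in Met-1 and cluster 12 with 90 of 164 in PyMT. Within clusters 12 and 17 the Plaur intervals of the libraries overlapped. The class difference and this makeup cannot be told apart. Neutrophils had more Plaur CPM than macrophages in each library, with ratios of 1.32 (1.05 to 1.64) in Met-1 and 1.65 (1.44 to 1.90) in PyMT. Over the measured genes the median log2 ratio of neutrophils over macrophages was -0.64 in Met-1 and -0.34 in PyMT, on the log2(CPM + 10) scale, while Plaur had 0.40 and 0.71. The share of genes at least 2-fold higher in neutrophils was 8.45% in Met-1 and 12.4% in PyMT, and 39% and 26.6% were at least 2-fold lower. In Met-1 that was 669 genes higher and 3088 lower, or 1584 and 1358 after centring, and in PyMT 404 and 866, or 603 and 631. Plaur was past 2-fold in neither library, 3 of 4 measured genes of the group were at least 2-fold lower in Met-1 neutrophils, and 1 of 2, Plau, in PyMT. Of these 3, Serpine2 and Serpinf1 rest on 0 UMIs in 35 Met-1 neutrophils, which allow 33.7 CPM, above the 13.8 and 12.1 CPM of Met-1 macrophages, so only the Plau difference exceeds that limit. After centring on the median gene Plaur was past 2-fold higher in both libraries, at 1.04 and 1.05.

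At 1000 UMIs per cell, Plaur was seen in 51.6% of Met-1 neutrophils (33.1 to 69.8) and 43.1% of PyMT neutrophils (35.2 to 51.4). Macrophages gave 40% (36.4 to 43.7) in Met-1 and 31.9% (24.8 to 39.6) in PyMT. Before thinning these shares were 68.6% and 52.1% of neutrophils and 73.7% and 68.3% of macrophages, whose cells are deeper. T cells gave 2.22% and 4.88% after thinning, at median depths of 7595 UMIs in Met-1 and 3814 in PyMT. Plaur in T cells stood at 17.6 CPM (12.6 to 23.9) in the Met-1 library and 32.0 CPM (12.9 to 66.0) in the PyMT library.

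B cells differed from T cells by far more than that background. Plaur stood at 335 CPM (300 to 372) in 252 Met-1 B cells and 695 CPM (497 to 947) in 26 PyMT B cells. Macrophages had 714 CPM (692 to 735) in Met-1, above the B cells. In PyMT they had 553 CPM (514 to 595), an interval that overlaps that of the B cells. The ratio of B over T cells was 19.0 (13.7 to 27.0) in Met-1 and 21.7 (9.62 to 57.4) in PyMT. Macrophage markers summed to 1791 CPM in Met-1 B cells, so B cells with no UMI of any of the 8 macrophage markers were read alone, a choice made after the values were seen. In those cells Plaur was 279 CPM (233 to 332) in 129 Met-1 cells and 654 CPM (405 to 999) in 14 PyMT cells. Between libraries the ratio of Met-1 over PyMT B cells was 0.481 (0.346 to 0.686), with 40 UMIs in the PyMT cells. Plaur was the 1 measured gene of the group in B cells and was at least 2-fold lower in Met-1, as were 4.43% of genes there, while 22.9% were at least 2-fold higher (116 and 600 genes, or 240 and 422 after centring).

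Fibroblasts had little Plaur, at 29.0 CPM (24.0 to 34.9) in the Met-1 library and 64.9 CPM (28.0 to 128) in the PyMT library, where 8 UMIs lay in 5 of 11 cells. Pericytes had 5.15 CPM, below the T cell level. Luminal cells had 4.56 CPM from 3 UMIs in the Met-1 library and 27.1 CPM (19.2 to 37.2) in the PyMT library, and the PyMT value lies within the T cell interval of that library. Luminal cells and pericytes did not exceed the T cell level, while its level in Met-1 fibroblasts lay just above the T cell interval.

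**Figure D2:**
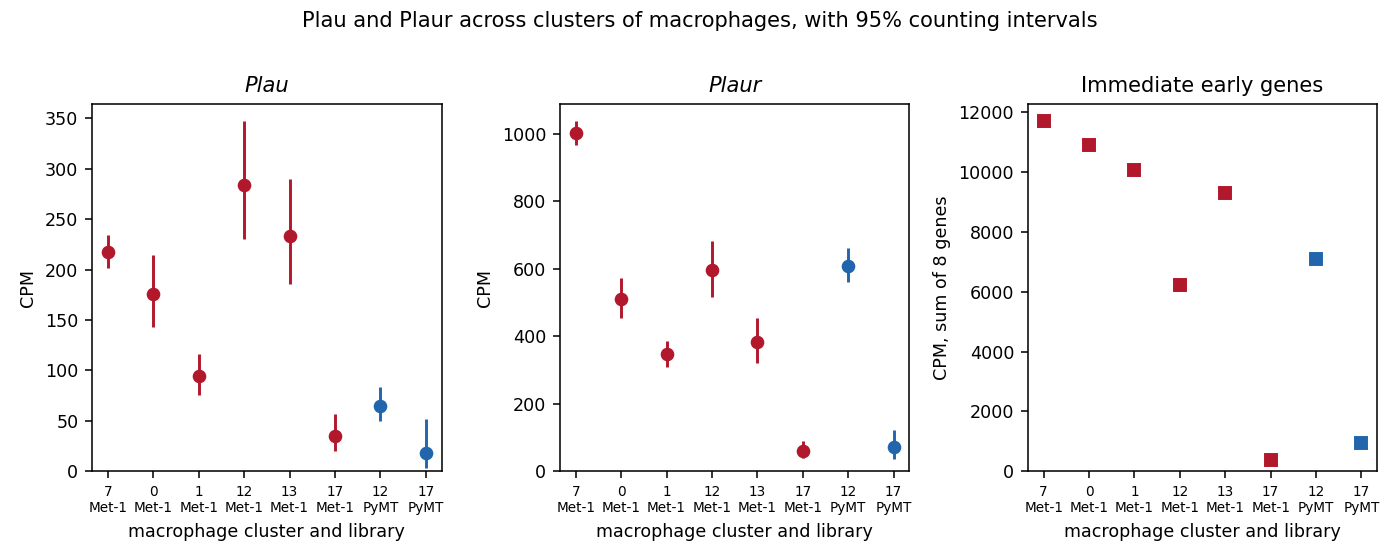
Plau and Plaur (CPM with 95% counting intervals) and the summed CPM of 8 immediate early genes in clusters of macrophages with at least 20 cells in a library; Met-1 clusters in red, PyMT clusters in blue. Plaur ran from 1002 CPM in cluster 7 to 61.2 CPM in cluster 17 of the Met-1 library, and cluster 17 was also lowest in immediate early genes in both libraries.

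Macrophages were not uniform. Clusters were made without the 5 genes entering the clustering, and are read by number and leading genes. In Met-1, cluster 7 (350 cells, led by Slc15a3, Dcstamp, Vcam1, Osm and Il1a) had 1002 CPM of Plaur (968 to 1037). Cluster 12 (led by Hmox1, Pf4 and Cxcl2) had 595 CPM, cluster 0 (led by interferon-induced genes such as Rsad2, Cxcl10 and Mx1) 511 CPM, cluster 13 (led by cell cycle genes such as Mki67 and Top2a) 383 CPM and cluster 1 (led by Clec4a1 and Cd72) 347 CPM. Cluster 17, led by Aif1, Fcrls and C1qb, had 61.2 CPM (40.7 to 88.5) in 98 Met-1 cells and 70.7 CPM (36.5 to 123) in 44 PyMT cells. Cluster 7 over cluster 17 was 16.4 for Plaur (11.3 to 24.7) and 6.21 for Plau (3.80 to 10.9).

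Plau followed another order. The highest Plau levels were those of Met-1 cluster 12, at 284 CPM (230 to 347) in 22 cells, and of cluster 13, at 234 CPM (186 to 290) in 23 cells. Cluster 7 had 217 CPM (201 to 234), cluster 0 had 176 CPM (143 to 215), cluster 1 had 94.3 CPM and cluster 17 had 35.0 CPM. The intervals of clusters 12, 13 and 7 overlap, as do those of 13, 7 and 0. In the PyMT tumor cluster 12 had 65.1 CPM (49.8 to 83.6), so the same cluster differed between libraries for Plau, while its Plaur level was 595 CPM (516 to 683) in the Met-1 library and 609 CPM (560 to 661) in the PyMT library. Immediate early genes summed to 11703 CPM in Met-1 cluster 7 and 378 CPM in Met-1 cluster 17, and to 7098 CPM in PyMT cluster 12 and 948 CPM in PyMT cluster 17. Whether dissociation or cell quality has a part in the low Plaur of cluster 17 was not tested, and its macrophage markers summed to 22685 CPM in Met-1, above the 17876 CPM of cluster 7. Its cells were also shallow, with a median of 3951 UMIs in Met-1 cluster 17 and 8511 in Met-1 cluster 7, and of 2713.5 UMIs in PyMT cluster 17 and 9781 in PyMT cluster 12. Their median mitochondrial share was 2.64% in Met-1 cluster 17 and 1.43% in Met-1 cluster 7, and 2.51% in PyMT cluster 17 and 1.48% in PyMT cluster 12.

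Cells with and without Plau were compared for Plaur at equal depth. In Met-1 macrophages thinned to 1000 UMIs, Plaur was seen in 42.7% of the 89 cells with Plau (32.3 to 53.6) and in 39.6% of the 621 cells without it (35.7 to 43.6). The intervals overlap widely. In PyMT macrophages only 3 thinned cells held Plau, too few for the same reading.

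Plat, the other activator, was high in fibroblasts and pericytes and near 0 elsewhere. In Met-1, pericytes had 534 CPM (493 to 578), myofibroblastic cells 456 CPM (430 to 482) and progenitor cells 391 CPM (355 to 430). Myofibroblastic over progenitor cells gave 1.16 (1.04 to 1.30) and pericytes over all fibroblasts 1.23 (1.12 to 1.35). On the log2(CPM + 10) scale Plat and the median gene both stood 0.21 higher in myofibroblastic cells, so Plat did not differ relative to that gene. In pericytes over fibroblasts Plat had 0.29 and the median gene 0.06. All other classes of at least 10 cells stood at or below 5.05 CPM in the Met-1 library and 2.24 CPM in the PyMT library. Fibroblasts had 435 CPM (415 to 456) in the Met-1 library and 438 CPM (329 to 572) in the PyMT library, a ratio of 0.993 (0.757 to 1.33). Progenitor cells had 391 CPM in Met-1 and 382 CPM (269 to 526) in the 8 PyMT cells, a ratio of 1.02 (0.732 to 1.48).

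Thinned to 1000 UMIs, 33.7% of Met-1 pericytes (24.4 to 43.9), 36.3% of myofibroblastic cells (28.2 to 45) and 29.9% of progenitor cells (20 to 41.4) showed Plat. The same share was 0.37% in T cells. Among single Met-1 cells the middle quartiles of Plat ran from 248 to 739 CPM in pericytes, from 271 to 658 CPM in myofibroblastic cells and from 92.1 to 578 CPM in progenitor cells. Progenitor cells also differed by their own markers. In progenitor cells with more Pi16 than Gdf10 UMIs (55 cells) Plat was 472 CPM (426 to 523), and in those with more Gdf10 than Pi16 (24 cells) it was 195 CPM (148 to 251). The ratio was 2.42 (1.84 to 3.25), in a division chosen after the values were seen. All 8 PyMT progenitor cells had more Pi16 than Gdf10, and against them the Met-1 cells of that kind gave a ratio of 1.24 (0.881 to 1.79).

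**Figure D3:**
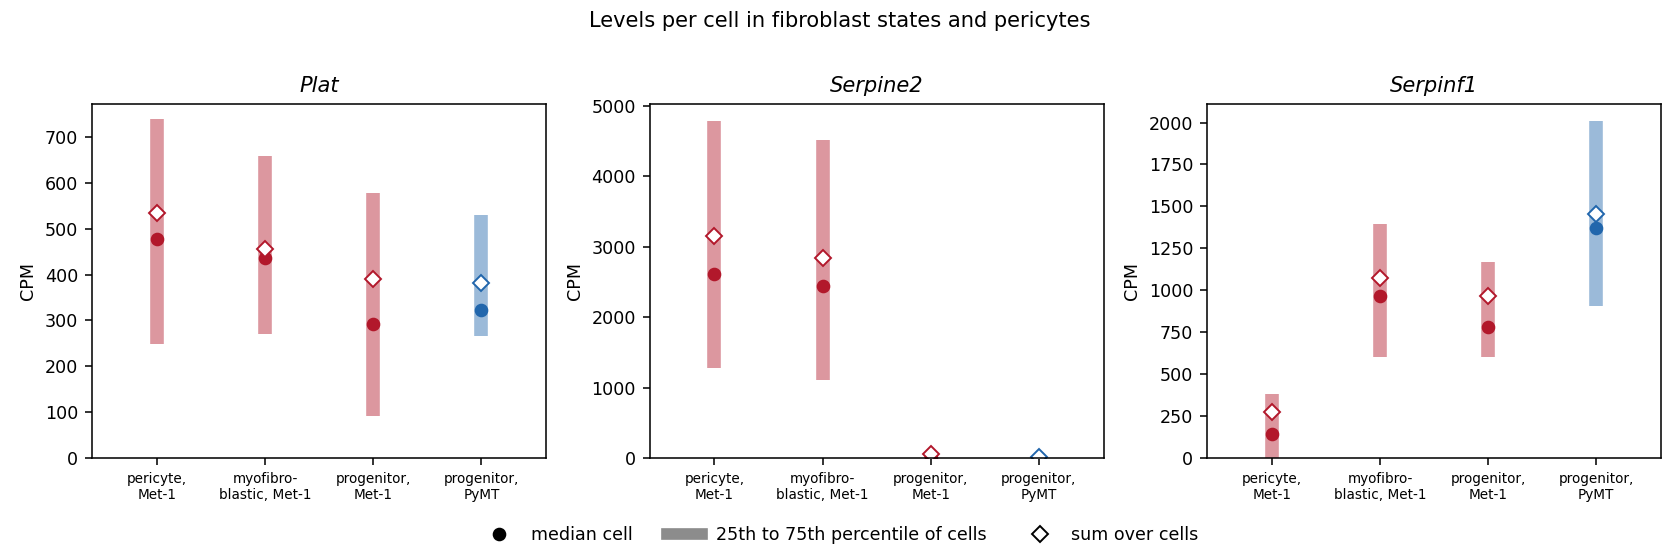
Plat, Serpine2 and Serpinf1 per cell (CPM) in Met-1 pericytes, myofibroblastic and progenitor cells in red and PyMT progenitor cells (8 cells) in blue; dots are median cells, bars run from the 25th to the 75th percentile and diamonds are sums over cells. The median Serpine2 level was 2610 CPM in pericytes and 2447 CPM in myofibroblastic cells and 0 in progenitor cells, where Plat and Serpinf1 remained high.

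Serpine2, the inhibitor that binds thrombin and both activators, separated the fibroblast states. In Met-1, pericytes had 3146 CPM (3045 to 3249) and myofibroblastic cells 2845 CPM (2782 to 2909), against 58.9 CPM (45.4 to 75) in progenitor cells. Myofibroblastic over progenitor cells gave 48.3 (37.9 to 62.7), and pericytes over myofibroblastic cells 1.11 (1.06 to 1.15). Serpine2 UMIs were found in 98 of 99 pericytes, 133 of 135 myofibroblastic cells and 22 of 81 progenitor cells. At 1000 UMIs per cell these shares were 91.8% (84.5 to 96.4), 81.5% (73.9 to 87.6) and 10.4% (4.59 to 19.4), against 1.11% of T cells. The median depths were 11627 UMIs in pericytes, 20958 in myofibroblastic and 13024 in progenitor cells.

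The middle quartiles of single cells ran from 1272 to 4786 CPM in pericytes and from 1113 to 4518 CPM in myofibroblastic cells. The 33 Met-1 barcodes left without a class because fibroblast and pericyte markers were both high had 5101 CPM (4872 to 5337). The 14 fibroblasts in neither state had 3570 CPM (3234 to 3931). The low level was that of progenitor cells, and both of these other sets stood high. Progenitor cells lay above the 12.4 CPM (8.34 to 17.9) of T cells, 11.8 CPM of B cells and 13.8 CPM of macrophages, which were alike in this library. Of 44 Serpine2 UMIs in Met-1 NK cells, 35 were in 1 cell.

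Between libraries the fibroblast classes differed in Serpine2 and also in their makeup of states. Serpine2 was 2083 CPM (2038 to 2128) in 230 Met-1 fibroblasts and 81.2 CPM (38.9 to 149) in 11 PyMT fibroblasts, a ratio of 25.7 (13.9 to 53.5). The PyMT value rests on 10 UMIs in 4 cells, and 0 of the 11 cells were of the myofibroblastic state. Of these UMIs, 8 lay in the 3 PyMT cells in neither state, at 305 CPM (132 to 601). The 14 Met-1 cells in neither state had 3570 CPM (3234 to 3931), so the libraries also differed within that small set. Within progenitor cells the levels were 58.9 CPM in the Met-1 library and 20.6 CPM (2.50 to 74.5) in the PyMT library, a ratio of 2.85 (0.759 to 24.1) with 2 UMIs behind the PyMT value. The difference between whole fibroblast classes and their makeup of states cannot be told apart here.

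Luminal cells showed the opposite order for Serpine2. They had 59.3 CPM (42.2 to 81.1) in the Met-1 xenograft and 226 CPM (202 to 253) in the PyMT tumor, with UMIs in 16 of 34 and 57 of 86 cells. The ratio of Met-1 over PyMT luminal cells was 0.262 (0.183 to 0.366). At 1000 UMIs the share was 3.45% (0.087 to 17.8) in Met-1 and 22.2% (13.7 to 32.8) in PyMT, and the median depths were 7949 and 17010 UMIs. In luminal cells with no fibroblast or pericyte marker UMI the levels were 23.3 CPM (0.59 to 130) in 11 Met-1 cells and 244 CPM (190 to 308) in 29 PyMT cells, a subset chosen after the values were seen. PyMT T cells had 0 Serpine2 UMIs and PyMT macrophages 7.48 CPM. Of the genes measured in luminal cells, 5.23% were at least 2-fold higher in Met-1 cells and 7.79% at least 2-fold lower, and Serpine2 was the 1 measured gene of the group and among the lower. When classes were taken from clusters the ratio became 1.0 (0.830 to 1.2), and the luminal class then held 1 Met-1 barcode with 107951 UMIs, 134 of them Serpine2, 505 Col1a1, a fibroblast marker, and 1115 Csn3, a luminal marker.

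Serpinf1, the gene of PEDF, was shared by all fibroblasts. In Met-1 it was 1071 CPM (1032 to 1110) in myofibroblastic cells and 965 CPM (908 to 1025) in progenitor cells, a ratio of 1.11 (1.03 to 1.19). The median gene stood 0.21 higher in myofibroblastic cells on the log2(CPM + 10) scale and Serpinf1 0.15, so relative to that gene the direction turned. At 1000 UMIs it was seen in 58.5% (49.7 to 66.9) of myofibroblastic and 62.3% (50.6 to 73.1) of progenitor cells, against 0.74% of T cells. Pericytes had 274 CPM (245 to 306), and pericytes over fibroblasts gave 0.263 (0.234 to 0.295). The 33 Met-1 barcodes with both fibroblast and pericyte markers lay between, at 582 CPM (507 to 666).

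PyMT fibroblasts had somewhat more Serpinf1. The levels were 1042 CPM (1010.4 to 1074) in Met-1 fibroblasts and 1339 CPM (1143 to 1560) in PyMT fibroblasts, a ratio of 0.778 (0.666 to 0.915). Within progenitor cells they were 965 CPM in the Met-1 library and 1455 CPM (1224 to 1715) in the PyMT library, a ratio of 0.664 (0.556 to 0.797). All 11 PyMT fibroblasts and 223 of 230 Met-1 fibroblasts had Serpinf1 UMIs. Macrophages had 12.1 CPM in the Met-1 library and 16.4 CPM in the PyMT library, and all other classes of at least 10 cells without fibroblast or pericyte markers stood at or below 20.2 CPM.

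**Figure D4:**
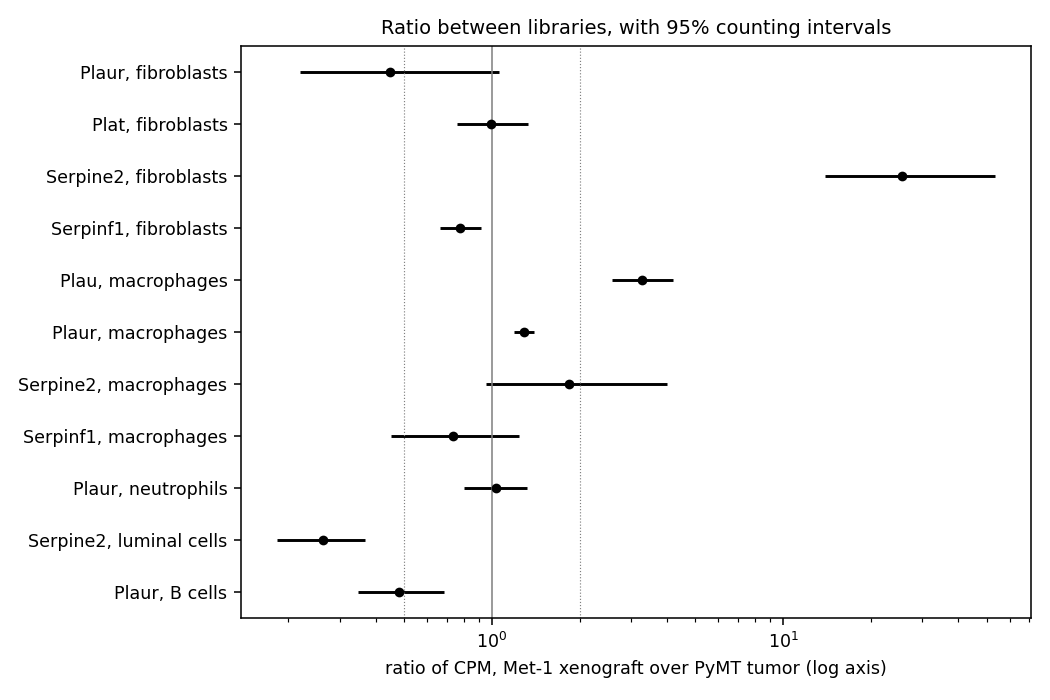
Ratio of CPM in the Met-1 xenograft over the PyMT tumor (log axis) for genes with UMIs in both libraries and at least 50 summed UMIs, with 95% counting intervals; dotted lines mark 2-fold. Serpine2 in fibroblasts stood at 25.7 and Plau in macrophages at 3.27, Serpine2 in luminal cells at 0.262 and Plaur in B cells at 0.481, while Plat in fibroblasts and Plaur in neutrophils lay at 1.

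Across comparisons the group can be set beside all measured genes. In fibroblasts of Met-1 over PyMT, 2 of 5 genes, Plau and Serpine2, were at least 2-fold higher and 0 lower, where 20.9% of genes were higher and 5.19% were lower (1626 and 403 genes, or 1213 and 723 after centring on the median gene, which stood at 0.24). After centring, Plaur was also past 2-fold, lower in Met-1, at -1.18. Between fibroblast states of Met-1, 1 of 5, Serpine2, was at least 2-fold higher in myofibroblastic cells, where 9.28% of genes were higher and 5.85% lower (620 and 391 genes, or 463 and 485 after centring). In pericytes over fibroblasts, 0 of 5 were at least 2-fold higher and 2 of 5, Plaur and Serpinf1, lower, where 4.27% of genes were higher and 8.41% lower. Between neutrophils of the libraries Plaur was the 1 measured gene of the group and was past 2-fold in neither direction, where 4.97% were higher in Met-1 and 19% lower (44 and 168 genes, or 83 and 115 after centring). None of the 5 reached 50 UMIs in T cells, where 9.95% of genes were past 2-fold on the higher side in Met-1 and 2.9% on the lower (481 and 140 genes, or 411 and 201 after centring).

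The wider plasminogen system was read from 7 lists of 57 genes, 56 of them in the table. No PyMT fibroblast was of the myofibroblastic state. For every list gene, a difference between whole fibroblast classes of the libraries and their makeup of states cannot be told apart. Plasminogen itself, Plg, had 1 UMI in Met-1 fibroblasts, and the substrate of the activators was hardly read in these cells. Of 36 measured list genes in Met-1 over PyMT fibroblasts, 12 were at least 2-fold higher and 6 lower, beside 20.9% and 5.19% of all measured genes, with a median log2 ratio of 0.34 against 0.24 over all genes. Of the 12, Vtn, A2m, Serpina3g, Serpinb6b and Serpini1, named after their values were seen, had 0 UMIs in the 11 PyMT fibroblasts. With PyMT levels of 0 set to the floor of 3 counts over the class, none of those 5 was past 2-fold. Then 7 list genes were higher and 6 lower, and the median was -0.07. The floor was not applied to all genes, so these values have no matching share or median over all genes. Between Met-1 fibroblast states 35 list genes were measured, and 13 were at least 2-fold higher in myofibroblastic cells and 10 lower, beside 9.28% and 5.85% of all genes, with a median of 0.16 against 0.21. In pericytes over fibroblasts 2 of 36 were higher and 18 lower, beside 4.27% and 8.41% of all genes, with a median of -1.03 against 0.06. In macrophages of Met-1 over PyMT 1 of 22 was higher and 1 lower, beside 6.2% and 1.24%, with medians of 0.03 and 0.16.

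Among plasminogen binding proteins, Anxa2 and S100a10, whose proteins form the annexin A2 complex that holds plasminogen and tissue plasminogen activator at the surface, were low in Met-1 fibroblasts and in their myofibroblastic state. S100a10 was 640 CPM in Met-1 fibroblasts and 1964 CPM in PyMT fibroblasts, a ratio of 0.326 (0.286 to 0.373). Within Met-1 it was 247 CPM in myofibroblastic and 1638 CPM in progenitor cells. Anxa2 was 664 CPM in Met-1 fibroblasts and 1364 CPM in PyMT fibroblasts, and 546 CPM in myofibroblastic and 965 CPM in progenitor cells. For both genes the difference between fibroblasts of the libraries cannot be told apart from the makeup of states. Of the 5 measured genes of this list, 0 stood at least 2-fold higher and 2 stood lower in Met-1 over PyMT fibroblasts, beside 20.9% and 5.19%, and the other named genes, Plgrkt, a plasminogen receptor, and Eno1, an enolase that also binds plasminogen, had log2 ratios of 0.32 and -0.59. Between libraries S100a10 in macrophages had a ratio of 0.332 (0.263 to 0.420), the same side as in fibroblasts.

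Among receptors and partners, 3 of 5 measured genes were at least 2-fold higher in Met-1 than in PyMT fibroblasts and 0 lower. Of all genes 20.9% were higher and 5.19% lower there. With PyMT zeros at the floor, which was not applied to all genes, 2 of 5 were higher and 0 lower. Lrp1, the scavenger receptor that takes up protease and serpin complexes, was 616 CPM in Met-1 fibroblasts and 658 CPM in PyMT fibroblasts, a ratio of 0.936 (0.750 to 1.18). Igf2r, which binds the urokinase receptor, was 116 CPM in the Met-1 library and 16.2 CPM from 2 UMIs in the PyMT library. Mrc2, the collagen receptor that associates with the urokinase receptor, was 228 CPM in the Met-1 library and 130 CPM in the PyMT library, and 275 CPM in myofibroblastic against 110 CPM in progenitor cells. Vtn, vitronectin, which binds that receptor, had 73 UMIs in Met-1 fibroblasts, 67 of them in progenitor cells, and 0 UMIs in the 11 PyMT cells.

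Of the other inhibitors, Serpinb2, the gene of PAI-2, had 1 UMI in Met-1 fibroblasts and 3 UMIs in monocytes. A2m, the gene of the protease trap alpha-2-macroglobulin, had 92 of its 94 Met-1 fibroblast UMIs in myofibroblastic cells, 34.0 CPM against 0.906 CPM in progenitor cells. A2m was the 1 measured gene of this list and was at least 2-fold higher in the myofibroblastic state. Of all genes 9.28% were higher and 5.85% lower there. Between libraries it had 23.9 CPM in Met-1 fibroblasts and 0 UMIs in PyMT fibroblasts, which allow 24.4 CPM, so no difference was detectable at this depth.

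Other serpins went both ways. Of 8 measured between Met-1 fibroblast states, 3 were at least 2-fold higher in myofibroblastic cells and 4 lower, beside 9.28% and 5.85% of all genes. Serpina3n, an inhibitor of chymotrypsin-like proteases, was 10.4 CPM in myofibroblastic and 373 CPM in progenitor cells, and Serping1, the C1 inhibitor, 818 and 2436 CPM in the same classes. Serpina3g was 55.8 CPM in myofibroblastic and 1.81 CPM in progenitor cells, and Serpini1, neuroserpin, an inhibitor of tissue plasminogen activator, 22.5 and 1.81 CPM. Serpinh1, the collagen chaperone HSP47, was 1815 CPM in myofibroblastic and 1142 CPM in progenitor cells, and 1621 CPM in Met-1 fibroblasts and 1891 CPM in PyMT fibroblasts. Between libraries 3 of 9 measured serpins were at least 2-fold higher in Met-1 fibroblasts and 1 lower, beside 20.9% and 5.19% of all genes. With PyMT zeros at the floor, which was not applied to all genes, 0 of 9 were higher and 1 lower. The lower gene was Serpina3n, at 115 CPM in the Met-1 library and 406 CPM in the PyMT library, a difference not separable from the makeup of states.

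Coagulation genes divided by state. F2r, the thrombin receptor PAR1, was 236 CPM in myofibroblastic and 16.3 CPM in progenitor cells, a ratio of 14.5 (9.10 to 24.6). F3, tissue factor, which starts coagulation, was 43.3 CPM in myofibroblastic and 195 CPM in progenitor cells, a ratio of 0.222 (0.176 to 0.280). Between these fibroblast states F2r stood high where the thrombin inhibitor gene Serpine2 stood high, and F3 where Serpine2 was low. A link between these genes was not tested. In pericytes, where Serpine2 was also high, 0 of 7 measured coagulation genes were at least 2-fold higher than in fibroblasts and 4 lower. Of all genes 4.27% were higher and 8.41% lower there. F2rl1, the receptor PAR2, was 33.6 and 3.62 CPM, and Tfpi2, an inhibitor of plasmin and tissue factor, 158 and 40.8 CPM in myofibroblastic and progenitor cells. Between states, 3 of the 7 measured members of this list were past 2-fold on the higher side and 3 on the lower, beside the same 9.28% and 5.85%. Between libraries 2 stood at least 2-fold higher and 2 stood lower in Met-1 fibroblasts, beside 20.9% and 5.19%. F3 was among the lower, at 90.5 CPM in the Met-1 library and 211 CPM in the PyMT library, a difference not separable from the makeup of states.

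Among proteins that the system cleaves or activates, 3 of 7 measured genes stood at least 2-fold higher and 1 lower in myofibroblastic over progenitor cells, beside 9.28% and 5.85% of all genes. The same counts held for Met-1 over PyMT fibroblasts, beside 20.9% and 5.19%. Mmp13, a collagenase, had 557 CPM in myofibroblastic cells and 0 UMIs in progenitor cells, at least 205-fold higher with the floor at 3 counts. Between libraries it was 385 CPM in Met-1 fibroblasts and 8.12 CPM from 1 UMI in PyMT fibroblasts, a ratio of 47.4 (8.49 to 1873). As PyMT fibroblasts held no myofibroblastic cells, this ratio and the makeup of states cannot be told apart. Pdgfc, a growth factor that tissue plasminogen activator can cleave, was 19.9 CPM in Met-1 fibroblasts and 97.4 CPM in PyMT fibroblasts, and Pdgfd, which urokinase can cleave, 23.4 and 40.6 CPM. Bdnf, whose precursor plasmin can cut, was 42.0 CPM in Met-1 fibroblasts and 8.12 CPM from 1 UMI in PyMT fibroblasts. Of the partners proposed for PEDF, Rpsa, the laminin receptor, was 2035 CPM in Met-1 fibroblasts and 2094 CPM in PyMT fibroblasts, and Lrp6 75.9 and 56.8 CPM, and neither was past 2-fold.

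**Figure D5:**
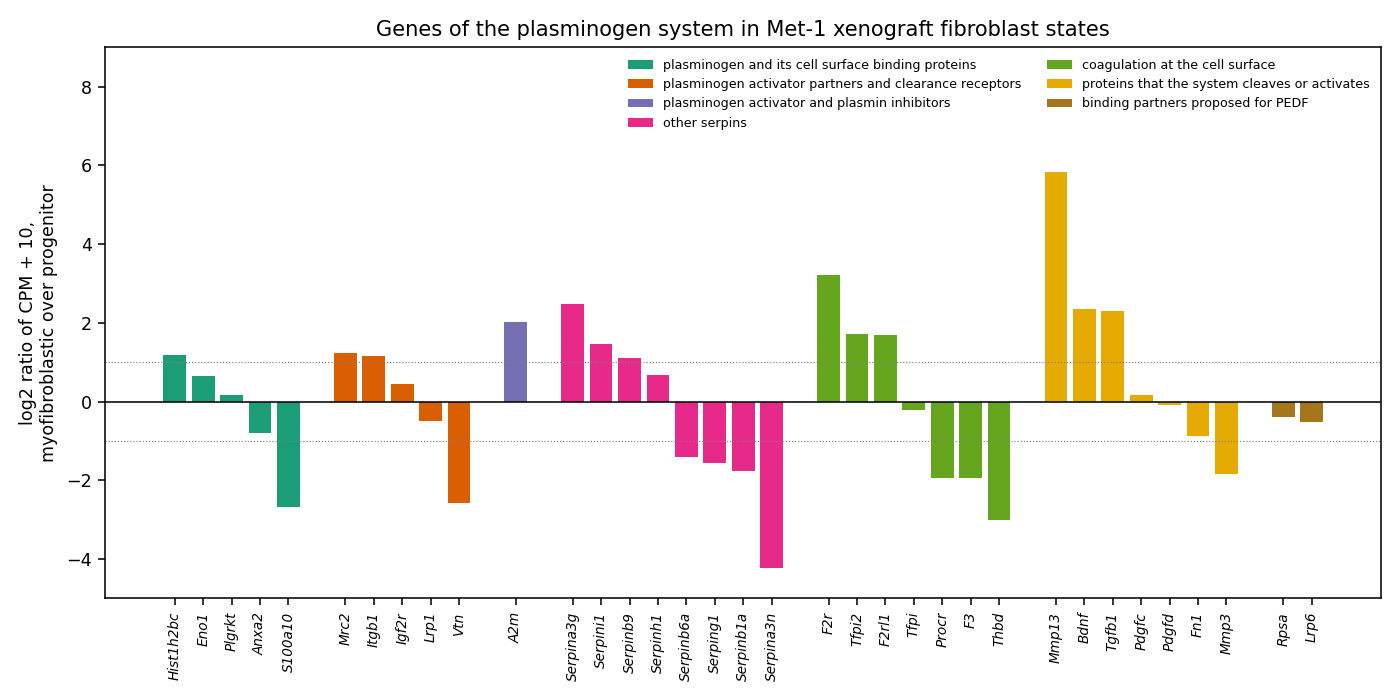
Log2 ratio of (CPM + 10) in myofibroblastic over progenitor cells of the Met-1 xenograft for the 35 measured genes of the 7 lists, coloured by list; dotted lines mark 2-fold. Mmp13, F2r, Serpina3g and Bdnf stood high, and Serpina3n, S100a10 and Vtn low, so that 13 genes lie above the upper line and 10 below the lower.

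The genes whose levels most resembled each of the 5 across 16 class and library groups were found by Pearson correlation of log2(CPM + 10) over 10378 genes, a description in which the groups share 2 libraries. For Plaur these were Dok3, Cyp4f18, Lyl1, Spi1 and Sgk3 (0.965 to 0.930), and Spi1 encodes the factor PU.1. For Plau they were Spire1, Zfp90, Fam189a2, Cmklr1 and Tbc1d16 (0.914 to 0.876). For Plat they were Lama2, Pcolce, Adamts2, Meg3 and Mageh1 (0.997 to 0.993), and for Serpinf1 Fkbp7, Fstl1, Antxr1, Pcolce and Islr (0.986 to 0.979), with Pcolce in both. For Serpine2 they were Gng11, H1fx, Nrep, Ctgf and Tpm2 (all 0.95).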

How the data were processed

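Single-cell libraries were made with the 10X Genomics protocol, per the labels' protocols. The authors deposited whole-number UMI counts for each gene in each barcode, and Cell Ranger 3.1.0 and build mm10 are named, per the submitters' processing notes. The annotation release and any barcode filtering are not given in the sources used here.

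Barcodes were kept with at least 500 UMIs, 200 genes and at most 10% mitochondrial UMIs. Of 2451 Met-1 barcodes 316 failed the mitochondrial limit, 21 the gene minimum and 16 the doublet caller (Scrublet in scanpy 1.11.5), whose calls were left out. In the PyMT library of 619 these were 27, 15 and 1, so the caller marked almost nothing there.

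Classes came from marker UMIs. Clusters used Leiden at resolution 1 without the 5 genes. Summed counts were scaled to CPM, and pseudocount 10 was used for log2 ratios. Thinning drew 1000 UMIs per cell and left out shallower cells, at most 19 per class. Intervals (95%) are exact Poisson, conditional binomial and Clopper-Pearson. Calls are at least 2-fold with at least 50 summed UMIs in either class. Calls and ratio intervals were tested on simulated data. List genes named are the 2 highest and 2 lowest of each list in fibroblasts of Met-1 over PyMT, plus 7 always named, and 1 further list gene is not reported here. For likeness, genes had at least 100 summed UMIs and groups at least 10 cells. The genes, lists and markers were chosen with earlier results of these data known.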

Additional observations from a re-analysis of the deposited data

Results flagged for a closer look

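Barcodes above the mitochondrial limit entered no class, and the 5 genes were read in them apart. In the 316 such Met-1 barcodes Serpine2 stood at 525 CPM (469 to 585), Plaur at 209 CPM (174 to 248), Plat at 126 CPM (99.1 to 157), Serpinf1 at 71.7 CPM (52.1 to 96.3) and Plau at 42.4 CPM (27.7 to 62.1), each above the 4.89 CPM that 3 UMIs would give. In the 27 such PyMT barcodes Plaur and Serpine2 each had 7 UMIs, or 141 CPM (56.7 to 291), above the 60.5 CPM that 3 UMIs would give. Plau and Plat had 0 UMIs and Serpinf1 had 1 there. The Met-1 barcodes held RNA of genes high in fibroblasts and of genes high in myeloid cells. Which cells they came from was not tested.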

How the results depend on the processing

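No paired analysis was possible because each group is 1 library. Of 150 ratios recomputed under the alternatives, 144 kept their direction and moved by less than their counting interval, as did 242 of 273 levels and 211 of 234 shares of cells. With classes from clusters, Serpine2 in luminal cells of Met-1 over PyMT was 1.0 in place of 0.262, Serpine2 in pericytes over fibroblasts was 1.81 in place of 1.51, Serpinf1 in the same comparison was 0.355 in place of 0.263, and Plau there was 1.04 in place of 0.488, a change of direction. With a marker lead of 40 points, chosen after seeing the data, Serpinf1 in pericytes over fibroblasts was 0.224 and Plat there was 1.10 in place of 1.23. The cause of these shifts was not tested, save that the luminal class of clusters held the 1 barcode named in the report.

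Counts of genes past 2-fold depend on the filter and the pseudocount. With at least 50 UMIs in both classes, Met-1 over PyMT fibroblasts gave 12 genes higher and 93 lower in place of 1626 and 403, and macrophages 151 higher in place of 491. Myofibroblastic over progenitor cells gave 137 and 224 in place of 620 and 391, and pericytes over fibroblasts 108 lower in place of 660. Met-1 over PyMT neutrophils gave 12 lower in place of 168, luminal cells 66 lower in place of 304, and B cells 6 and 22 in place of 600 and 116. Neutrophils over macrophages gave 110 and 37 in Met-1 in place of 669 and 3088, and 260 and 82 in PyMT in place of 404 and 866. With pseudocount 1, macrophages gave 1267 higher and 154 lower. With no filter, fibroblasts gave 674 lower, neutrophils 1368 and 1285, luminal cells 527 and 476, and B cells 2275 and 954. Depth limits small or shallow classes: 3 UMIs equal 52.2 CPM in the 26 PyMT B cells, 33.7 CPM in the 35 Met-1 neutrophils and 24.4 CPM in the 11 PyMT fibroblasts.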
